A study of Zea mays with 24 samples.

Results

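Nitrate reduction in the maize source leaf was followed through the 6 transcript probes that the study's pathway table places under the heading nitrate reduction, out of 41780 transcript probes on the array. They were chosen by that heading alone and looked up by probe name. Of the 6 loci, 4 were described as nitrate reductase (GRMZM2G142386, GRMZM2G104898, GRMZM2G428027 and GRMZM2G076723), 1 as ferredoxin nitrite reductase (GRMZM2G079381) and 1 as uroporphyrin III methyltransferase (GRMZM2G000739). The table called the first 3 nitrate reductases cytosolic minor isoforms and GRMZM2G076723 the structural gene. The samples were 24 source leaf laminae of the B73 inbred, each measured on its own 1-colour array, in 3 experiments with their own controls and 4 biological replicates in each of 6 groups. In the low temperature experiment the fifth leaf was taken at day 20 after germination, from plants with nights of 4 °C (low T) or 20 °C (control T), all fed with 15 mM KNO3 and 0.5 mM KH2PO4. In the nutrient experiments the sixth leaf was taken at day 30 with nights of 20 °C. Low N plants received 0.15 mM KNO3 with 0.5 mM KH2PO4, low P plants received 0.1 mM KH2PO4 with 15 mM KNO3, and control N and control P plants received 15 mM KNO3 and 0.5 mM KH2PO4. All plants grew in pots of nutrient-poor peat soil, and potassium was balanced with KCl. Low T and control T plants stood in separate climate chambers, so that chamber and night temperature cannot be told apart.

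Nitrate reductase transfers electrons from NAD(P)H to nitrate in the cytosol, and the nitrite formed enters the plastid, where nitrite reductase reduces it to ammonium with electrons from ferredoxin. Nitrite reductase carries a sirohaem group, and uroporphyrin III methyltransferase is the first enzyme on the branch that makes sirohaem from the tetrapyrrole pathway. In the maize leaf these steps are placed mainly in the mesophyll, and nitrate itself is a classical inducer of nitrate and nitrite reductase transcripts. The ammonium is then taken up by glutamine synthetase and glutamate synthase (the GS/GOGAT cycle).

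Each value below is a normalized log2 intensity, the log2 of the background-subtracted signal minus the 75th percentile of that array, so that 0 stands for the 75th percentile and a step of 1 for a factor of 2. Levels of different probes are not compared, because each probe binds with its own strength. All 6 probes were well above background on 24 of 24 arrays, none was saturated and no value was missing. The signal before scaling ranged from 257 for the dimmest array of GRMZM2G428027 to 143652 for the brightest array of GRMZM2G142386. Calls needed a change by a factor over 2 together with an adjusted p under 0.05 in limma, with Benjamini-Hochberg adjustment over the 31507 probes tested. On the arrays 25780 to 36966 probes were well above background. The photosystem lists, the C4 shuttle list and 27 of 28 Calvin cycle probes were well above background on all 24 arrays, as in green leaf. Probe sequences were not used here, so that a signal shared between similar nitrate reductase genes cannot be told apart from separate transcripts.

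All 6 probes had the same order at the top and the bottom of their levels, with the control P mean highest, then control N, then control T, and the low N mean lowest. In the most strongly expressed state, control P, GRMZM2G142386 had a level of 7.36 ± 0.10 (SD, n = 4), and in the weakest, low N, 4.00 ± 0.36. GRMZM2G079381, the nitrite reductase, went from 5.10 ± 0.37 in control P to 2.53 ± 0.29 in low N. Low P and low T lay between, but not in the same order in every gene. For GRMZM2G142386 and GRMZM2G076723, low P (6.20 ± 0.16 and 5.49 ± 0.17) stood over low T (5.16 ± 0.13 and 4.40 ± 0.15) without overlap. For the nitrite reductase both means were 3.43, and for the methyltransferase GRMZM2G000739 low P (-1.20 ± 0.19) stood under low T (-0.13 ± 0.40). Of 30 neighbouring pairs in these orders, 14 differed by limma in 1 fit over all arrays, and 7 did when the arrays were scaled on the 7 bright spike-in probes. The control N mean exceeded the control T mean in all 6 genes by 0.66 to 1.26 on the log2 scale (adjusted p = 0.00134 to 0.0446), a pair of groups between which 42.2% of all tested probes differed. These 2 groups also differ in leaf, age and chamber. The same holds for every pair below that joins the low temperature experiment with a nutrient experiment. Low T over low N differed in 4 of the 4 genes where they were neighbours (52.4% of all tested probes). Low P and low T differed in 3 of 6 (58.1%), namely GRMZM2G142386, GRMZM2G076723 and GRMZM2G000739, and low P over low N in 1 of 2 (39.7%), the nitrite reductase. Control T did not differ from its lower neighbour, which was low P in 4 genes (38.2% of tested probes differed) and low T in 2 (39.5%). The control P and control N means did not differ for any of the 6 in that fit, where 2.41% of tested probes differed. In a fit of these 2 control groups alone, GRMZM2G000739 was called, with control N lower by 1.33 (log2 difference -1.33, SE 0.24, adjusted p = 0.0308), where 1.26% of tested probes were called. That call was lost without any one of control N replicate 1, control N replicate 2, control P replicate 1, control P replicate 2 or control P replicate 3.

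**Figure D1:**
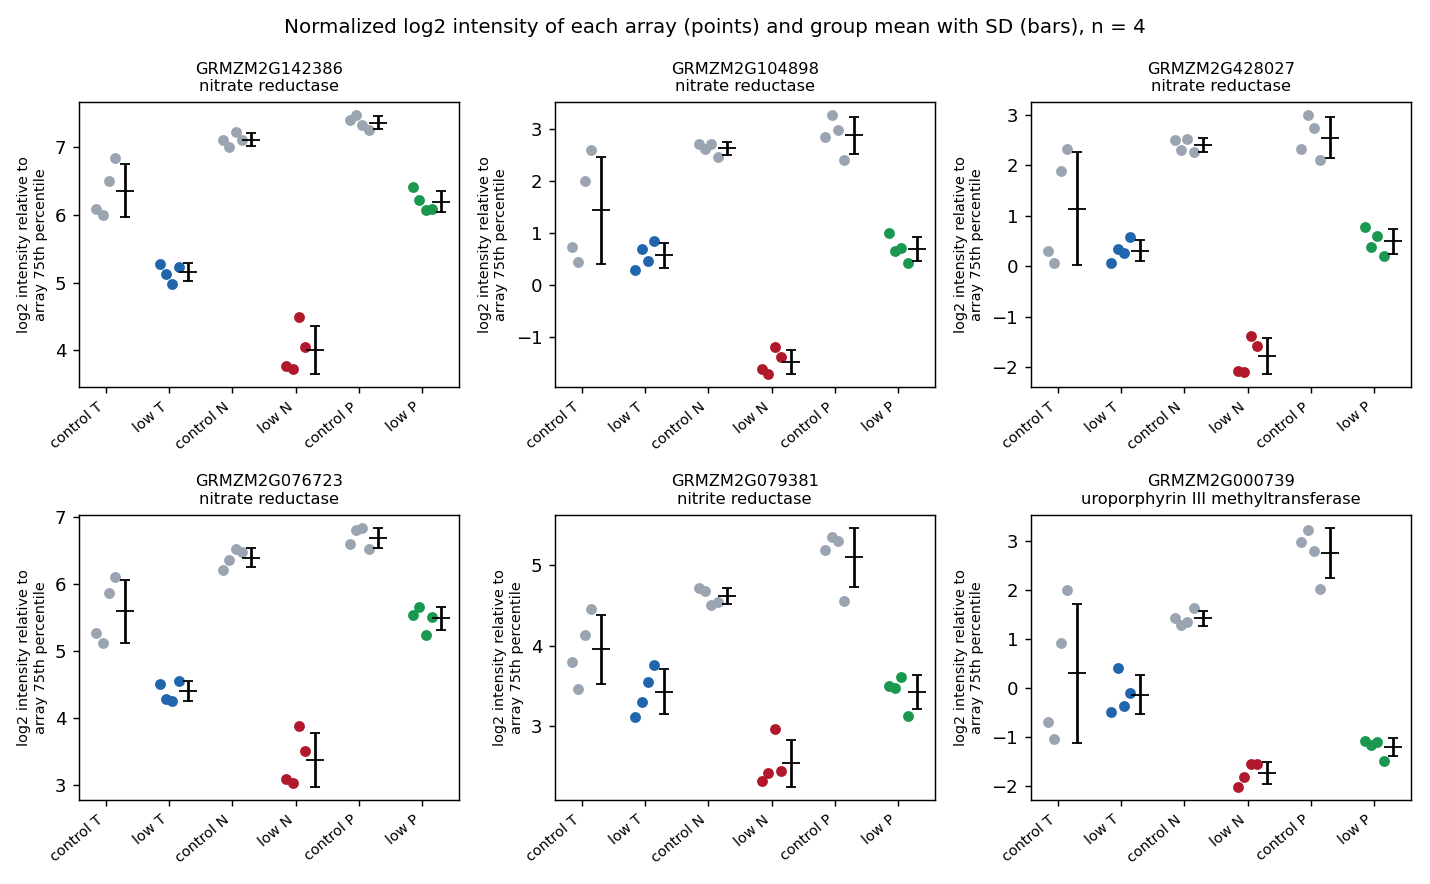
Normalized log2 intensity (vertical axis) of each of the 6 nitrate reduction probes in the 6 groups, with 1 point per array and bars for the mean and SD (n = 4). In each panel the low N mean is the lowest, and the control T arrays are split in GRMZM2G104898, GRMZM2G428027 and GRMZM2G000739, with 2 low and 2 high.

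Under low N all 6 transcripts fell, by a factor of 4.23 for the nitrite reductase to 18.1 for the nitrate reductase GRMZM2G428027. All 6 of 6 were called lower, where 3.14% of the tested probes were called lower. Their median log2 change was -3.13, against -0.04 for all tested probes. In none of the 6 did low N and control N arrays overlap, which held in the same direction for 11% of tested probes. In a leaf sample, fewer cells of a type and less RNA per cell cannot be told apart.

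GRMZM2G142386 stood at 7.10, 7.01, 7.23 and 7.11 in the control N arrays and at 3.77, 3.72, 4.49 and 4.04 in the low N arrays. The groups were separated by a gap of 2.52, and low N replicate 3 was the highest of its group. The log2 change was -3.11 (SE 0.19, limma adjusted p = 0.000162), leaving 11.6% of the control level. GRMZM2G076723, the structural gene of the table, moved in nearly the same way, from 6.21, 6.36, 6.52 and 6.48 in control N to 3.09, 3.03, 3.89 and 3.51 in low N. Low N replicate 3 was again the highest of its group, and the change was -3.01 (SE 0.21, limma adjusted p = 0.000229).

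The other 2 nitrate reductase probes fell further. GRMZM2G104898 was at 2.73, 2.61, 2.73 and 2.47 in control N and at -1.63, -1.72, -1.20 and -1.39 in low N. All control arrays were thus over the 75th percentile of their array and all low N arrays under it. The change of -4.12 (SE 0.15, limma adjusted p = 2.32e-05) was the 32nd strongest decrease of 31507 probes. GRMZM2G428027 crossed the same line, from 2.50, 2.30, 2.53 and 2.27 to -2.07, -2.09, -1.38 and -1.57. Its change was -4.18 (SE 0.19, limma adjusted p = 7.16e-05), the 30th strongest decrease, and 5.52% of the control level remained.

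GRMZM2G079381 encodes the next enzyme, nitrite reductase, and was at 4.72, 4.68, 4.51 and 4.55 in control N. In low N it was at 2.32, 2.41, 2.96 and 2.44, so that low N replicate 3 was the highest here too. The change was -2.08 (SE 0.17, limma adjusted p = 0.000494), the smallest of the 6. GRMZM2G000739, for the sirohaem branch, went from 1.43, 1.28, 1.34 and 1.64 to -2.01, -1.82, -1.54 and -1.56. It changed by -3.15 (SE 0.16, limma adjusted p = 8.11e-05), a fold decrease of 8.90.

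In all 6 genes low N replicates 3 and 4, on 1 slide, stood over low N replicates 1 and 2, on another slide. The methods describe 2 successive sets of plants for this experiment as well, without assigning samples to them. Slide and set of plants therefore cannot be told apart. The low N and control N arrays met only on the slide of low N replicates 3 and 4, with 1 control and 2 low N arrays. Within it the changes were -2.96 for GRMZM2G142386, -4.02 for GRMZM2G104898, -4.01 for GRMZM2G428027, -2.82 for GRMZM2G076723, -1.81 for GRMZM2G079381 and -2.89 for GRMZM2G000739. With the slide as a random block all 6 calls stood, at -1.92 for the nitrite reductase to -4.08 for GRMZM2G428027. The 4 mesophyll markers, which were carbonic anhydrases, PEP carboxylase and pyruvate phosphate dikinase, had a mean level of 4.34 to 4.62 in control N and 4.09 to 4.35 in low N arrays. Their median change was -0.21 and 1 of 4 was called lower, but they went in both directions. Pyruvate phosphate dikinase changed by -1.22 (called) and PEP carboxylase by -0.70 (limma adjusted p = 0.0228). The carbonic anhydrases changed by 0.27 and 0.58 (limma adjusted p = 0.339 and 0.0542). The 3 bundle sheath markers had a mean level of 6.46 to 6.94 in control N and 5.79 to 6.40 in low N arrays, with a median change of -0.63 and 0 of 3 called (2 at an adjusted p under 0.05). The 5 senescence markers of the pathway table had a mean level of -1.83 to -1.18 in control N and -1.38 to -0.82 in low N arrays, and 1 of 5 was called higher. The part of these markers in the result was not tested.

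**Figure D2:**
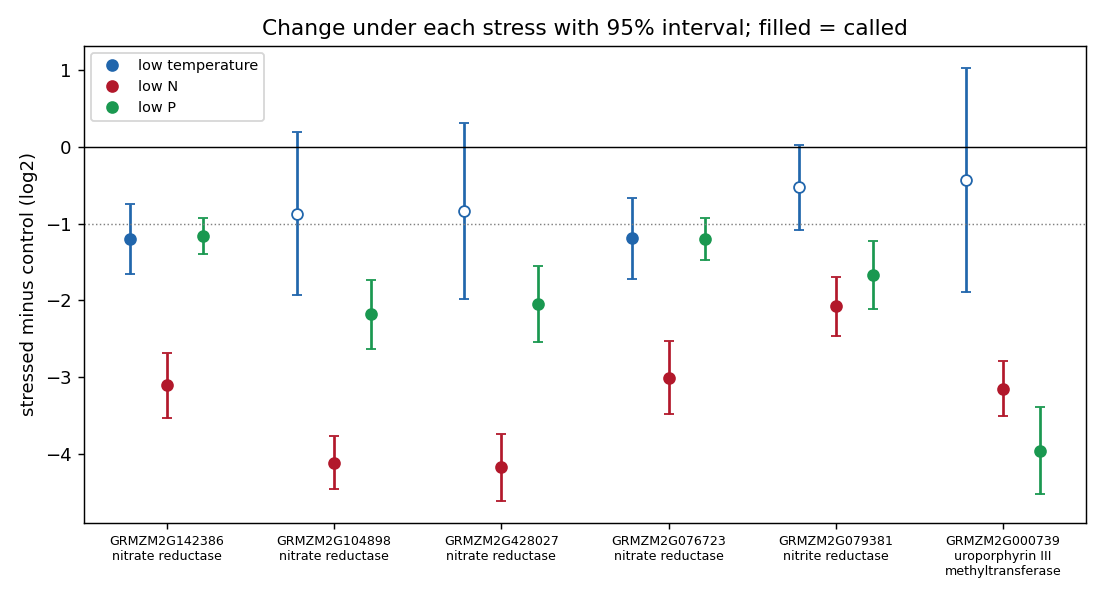
Log2 change of stressed against control arrays (vertical axis) for the 6 nitrate reduction genes under the 3 stresses, with 95% intervals from limma (4 arrays per group). Filled points were called, and the dotted line marks a decrease by a factor of 2. All low N and low P points are filled, and under low temperature only GRMZM2G142386 and GRMZM2G076723 are.

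Low P plants had the full nitrate supply, and in their leaves all 6 transcripts were lower as well, by a factor of 2.24 for GRMZM2G142386 to 15.6 for the methyltransferase. All 6 of 6 were called lower, where 3.01% of tested probes were, and the median change was -1.86 against 0.03 for all probes. No probe had overlapping groups, as was so in this direction for 20.5% of tested probes. The control P arrays shared 1 slide and the low P arrays a different one, and slide and phosphate supply cannot be told apart.

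The strongest change was in GRMZM2G000739, the methyltransferase. It stood at 2.97, 3.23, 2.80 and 2.03 in control P and at -1.07, -1.16, -1.10 and -1.48 in low P. Control P replicate 4 was the lowest control, and the gap to the low P arrays was still 3.10. The change of -3.96 (SE 0.25, limma adjusted p = 2.30e-05) was the 17th strongest decrease among all tested probes, and 6.42% of the control level remained. The nitrite reductase GRMZM2G079381 went from 5.20, 5.35, 5.30 and 4.55 to 3.50, 3.47, 3.61 and 3.12, and replicate 4 was the lowest of both groups. Its change was -1.67 (SE 0.19, limma adjusted p = 0.000426).

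Among the nitrate reductases the same 2 probes as under low N changed most. GRMZM2G104898 was at 2.86, 3.28, 2.99 and 2.40 in control P and at 0.998, 0.66, 0.70 and 0.43 in low P, a change of -2.19 (SE 0.20, limma adjusted p = 0.000126). GRMZM2G428027 was at 2.33, 3.004, 2.75 and 2.11 in control P and at 0.79, 0.39, 0.60 and 0.21 in low P, a change of -2.05 (SE 0.21, limma adjusted p = 0.000251). Both stayed over the 75th percentile of the array in all low P arrays, unlike in low N.

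GRMZM2G142386 had 7.40, 7.48, 7.32 and 7.25 in control P and 6.41, 6.23, 6.07 and 6.09 in low P, a change of -1.17 (SE 0.10, limma adjusted p = 0.000106). GRMZM2G076723 had 6.59, 6.81, 6.83 and 6.53 in control P and 5.54, 5.66, 5.25 and 5.51 in low P, a change of -1.20 (SE 0.12, limma adjusted p = 0.000188). These 2 decreases lay close to the limit of a factor of 2, and both calls were lost when the arrays were scaled on the spike-in probes, which bind control RNA added at labelling (-0.95 and -0.98). The median of all tested probes rose by 0.22 under that scaling. The mesophyll markers had a mean level of 3.67 to 4.31 in control P and 3.19 to 3.81 in low P arrays, with a median change of -0.39 and 1 of 4 called lower. The bundle sheath markers had a mean level of 6.25 to 6.86 in control P and 5.48 to 6.20 in low P arrays, with a median change of -0.78 and 1 of 3 called lower. The senescence markers had a mean level of -1.88 to -1.40 in control P and -1.17 to -0.68 in low P arrays, with a median change of 0.49 and 2 of 5 called higher. The part of these markers in the result was not tested.

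The decrease was deeper under low N than under low P in each of the 4 nitrate reductase genes. The limma interaction contrasts gave differences of -1.94 (SE 0.24, adjusted p = 1.45e-05) for GRMZM2G142386, -1.93 (SE 0.46, adjusted p = 0.00531) for GRMZM2G104898, -2.13 (SE 0.50, adjusted p = 0.00528) for GRMZM2G428027 and -1.81 (SE 0.28, adjusted p = 0.000123) for GRMZM2G076723. Of all tested probes 19.9% differed in this contrast. The contrast joins separate experiments, and in the low P experiment slide and phosphate supply cannot be told apart. For the nitrite reductase the difference was -0.41 (95% interval -1.03 to 0.21, adjusted p = 0.355). For the methyltransferase it was 0.81, with the deeper decrease under low P (95% interval -0.48 to 2.10, adjusted p = 0.387). These 2 intervals leave room for differences of 1 and more on the log2 scale.

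Under low temperature 2 of the 6 transcripts were called lower, GRMZM2G142386 and GRMZM2G076723, where 7.11% of tested probes were called lower. The median change of the 6 was -0.85, against -0.07 for all probes. GRMZM2G142386 stood at 6.09, 6.003, 6.49 and 6.85 in control T and at 5.28, 5.13, 4.98 and 5.23 in low T, and the groups were 0.72 apart. Its change was -1.20 (SE 0.20, limma adjusted p = 0.00346), and that of GRMZM2G076723 was -1.19 (SE 0.23, limma adjusted p = 0.00644), from 5.28, 5.13, 5.86 and 6.10 to 4.51, 4.29, 4.25 and 4.55. Groups without overlap in this direction were found for 2 of the 6 and for 18.2% of tested probes. Neither call stood under quantile normalization (-0.90 and -0.93), under spike-in scaling (-0.76 and -0.75) or under normexp background correction (adjusted p = 0.0595 and 0.0696). The mesophyll markers had a mean level of 4.67 to 4.90 in control T and 4.70 to 4.91 in low T arrays. Of these, 0 of 4 were called and 1 had an adjusted p under 0.05, the carbonic anhydrase GRMZM2G145101, which rose by 0.71. The others changed by -0.24, -0.26 and -0.07. The bundle sheath markers had a mean level of 6.98 to 7.44 in control T and 6.53 to 7.04 in low T arrays, with a median change of -0.46 and 0 of 3 called (1 at an adjusted p under 0.05), and of the senescence markers 1 of 5 was called lower and 1 higher. The part of these markers in the result was not tested.

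The other 4 probes had changes of -0.87 (GRMZM2G104898, adjusted p = 0.185), -0.83 (GRMZM2G428027, adjusted p = 0.234), -0.53 (GRMZM2G079381, adjusted p = 0.127) and -0.43 (GRMZM2G000739, adjusted p = 0.632) by limma, and their groups overlapped. The control T arrays lay far apart. GRMZM2G000739 was at -0.69 and -1.04 in control T replicates 1 and 2 but at 0.92 and 2.01 in replicates 3 and 4, while low T arrays lay at -0.48, 0.41, -0.36 and -0.10. GRMZM2G104898 was at 0.73, 0.44, 2.00 and 2.61 in control T and at 0.29, 0.70, 0.47 and 0.84 in low T. GRMZM2G428027 was at 0.31, 0.06, 1.88 and 2.32 in control T and at 0.06, 0.35, 0.27 and 0.57 in low T. For these 3 probes the first 2 control arrays lay within or below the range of the low T arrays, and the last 2 lay above it. The nitrite reductase was at 3.79, 3.45, 4.13 and 4.45 in control T and at 3.11, 3.30, 3.55 and 3.75 in low T, with the same 2 control arrays highest.

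The arrays of replicates 1 and 2, stressed and control, lay on slide 1, and those of replicates 3 and 4 lay on slide 2. In the control T arrays slide 2 exceeded slide 1 by 2.33 for GRMZM2G000739, 1.92 for GRMZM2G428027 and 1.72 for GRMZM2G104898, where the median size of this difference over all tested probes was 0.41. These differences were among the top 0.74%, 1.52% and 2.15% of all tested probes. GRMZM2G142386, GRMZM2G076723 and GRMZM2G079381 differed by 0.62, 0.78 and 0.66. In the low T arrays the same slide differences lay between -0.20 and 0.45. The methods describe 2 successive sets of plants for this experiment without assigning samples to them, so that slide and set of plants cannot be told apart.

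Within slide 1 the change under low temperature was -0.84 for GRMZM2G142386 and -0.80 for GRMZM2G076723, against -1.57 and -1.58 within slide 2. For GRMZM2G104898 it was -0.09 on slide 1 and -1.65 on slide 2, and for GRMZM2G428027 it was 0.02 and -1.68. For the nitrite reductase it was -0.42 and -0.64, and for the methyltransferase it was 0.83 and -1.70, so that its direction turned between slides. Fitted alone with limma, the 4 arrays of slide 1 gave 0 calls of 6 (2 at an adjusted and 2 at an unadjusted p under 0.05, with decreases under a factor of 2), where 8.13% of tested probes were called lower, and those of slide 2 gave 4, where 6.98% were. With the slide as a fixed block the same 2 genes were called. The nitrite reductase change of -0.53 then had a limma adjusted p of 0.0169, and 0.0356 with the replicate block, but stayed under a factor of 2.

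**Figure D3:**
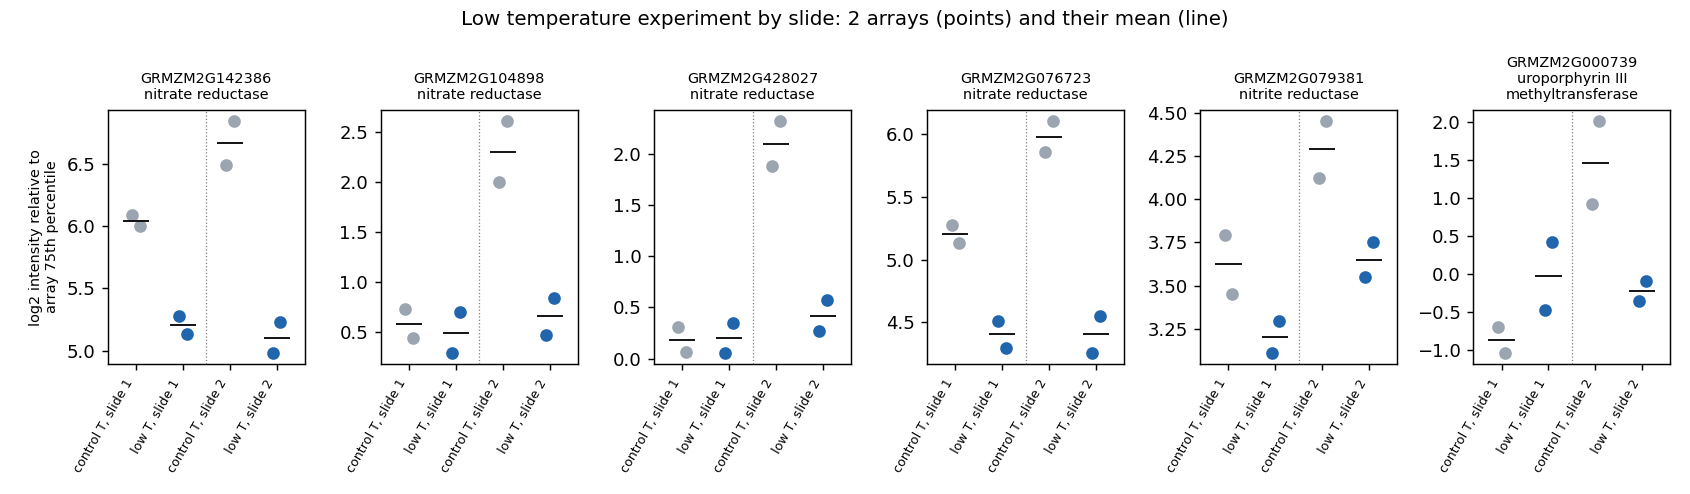
Normalized log2 intensity (vertical axis) in the low temperature experiment, split by slide, with 1 point per array and a line at the mean of each pair of arrays. In GRMZM2G104898, GRMZM2G428027 and GRMZM2G000739 the control T arrays of slide 2 stand 1.72 to 2.33 over those of slide 1, while the low T means of both slides differ by 0.22 or less in these 3.

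The change was less negative under low temperature than under low N in all 6 genes (limma interaction contrasts, adjusted p = 1.79e-05 to 0.00353), with differences of 1.55 for the nitrite reductase to 3.35 for GRMZM2G428027. Of all tested probes 22.4% differed in this contrast. Against low P, 3 of 6 differed, where 38.9% of tested probes did. These were GRMZM2G104898 (1.32, adjusted p = 0.0278), GRMZM2G079381 (1.14, adjusted p = 0.00448) and GRMZM2G000739 (3.53, adjusted p = 0.000154), all with the more negative change under low P. Under normexp background correction 1 of the 3 differed, GRMZM2G000739, and GRMZM2G104898 no longer differed when any one of control T replicates 1 or 2, low T replicate 4, control P replicate 2 or low P replicate 4 was left out. For GRMZM2G428027 the difference was 1.22 (95% interval 0.17 to 2.27, adjusted p = 0.0617), and it passed under quantile normalization (1.28, adjusted p = 0.0439), under spike-in scaling (1.44, adjusted p = 0.0274) and without control T replicate 3 (1.47), control T replicate 4 (1.61) or control P replicate 4 (1.37). For GRMZM2G142386 it was -0.04 (95% interval -0.54 to 0.46) and for GRMZM2G076723 it was 0.01 (95% interval -0.57 to 0.59). In the low P part of these contrasts slide and phosphate supply cannot be told apart.

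Differences between 2 probes on the same array do not depend on a scaling that shifts all probes of an array alike. Quantile normalization is not of this kind. Under it the low N change in the distance from GRMZM2G142386 to GRMZM2G079381 went from -1.03 to -0.88. The 2 probes GRMZM2G142386 and GRMZM2G076723 kept a nearly fixed distance, with group means between 0.62 and 0.77 in all 6 groups, and stressed and control arrays overlapped under all 3 stresses. The distance from the nitrate reductase GRMZM2G142386 to the nitrite reductase GRMZM2G079381 fell from 2.50 ± 0.18 in control N to 1.47 ± 0.13 in low N (n = 4), and from 2.40 ± 0.11 in control T to 1.73 ± 0.35 in low T, both without overlap. Under low P it was 2.27 ± 0.30 in control and 2.77 ± 0.23 in stressed arrays, and these overlapped. GRMZM2G142386 thus lost more signal than the nitrite reductase under low N and low temperature, a difference that was not tested. Under low P the nitrate reductases lay on both sides of the nitrite reductase (-1.67). GRMZM2G104898 (-2.19) and GRMZM2G428027 (-2.05) changed more, and GRMZM2G142386 (-1.17) and GRMZM2G076723 (-1.20) less.

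The distance from the nitrite reductase to the methyltransferase GRMZM2G000739 was larger under both nutrient stresses. It was 3.19 ± 0.21 in control N and 4.27 ± 0.21 in low N, and 2.34 ± 0.20 in control P and 4.63 ± 0.06 in low P, in both cases without overlap. In the low temperature experiment it was 3.66 ± 1.01 in control T and 3.56 ± 0.47 in low T, with overlap. The gene for the sirohaem branch thus fell further than the nitrite reductase gene under low N and low P, a difference that was not tested.

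**Figure D4:**
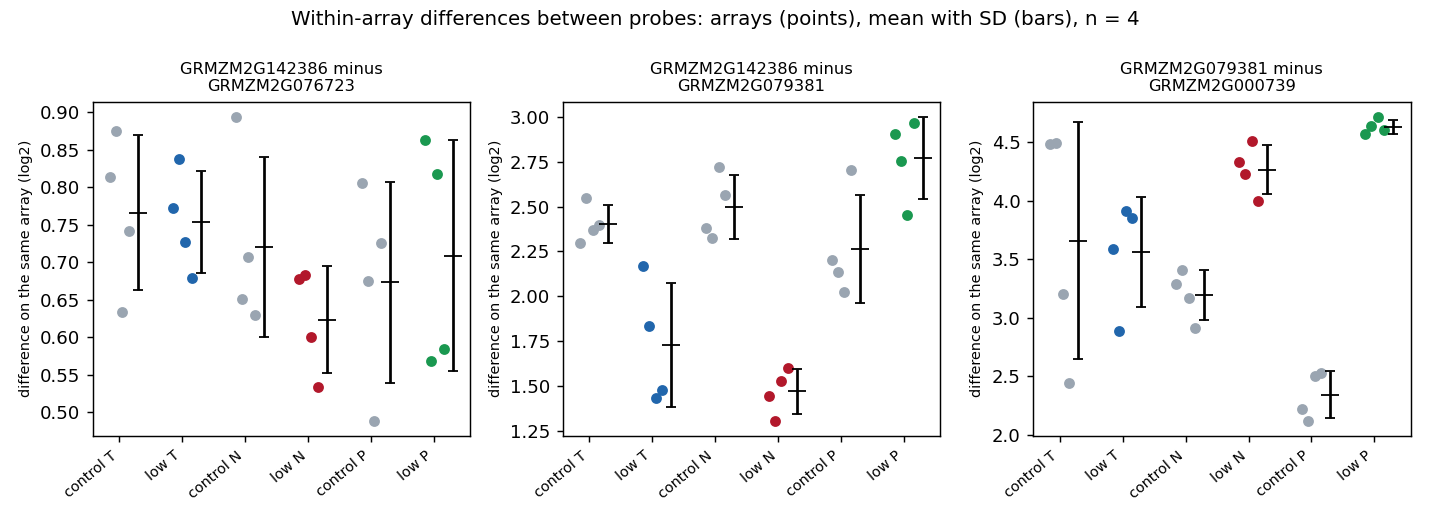
Difference in log2 intensity between 2 probes on the same array (vertical axis) for 3 pairs of nitrate reduction genes, with 1 point per array and bars for the mean and SD (n = 4). The first pair stays between group means of 0.62 and 0.77, the second is lower in low N and low T than in their controls, and the third is higher in low N and low P.

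Over the 24 arrays the 6 probes varied together, with Pearson correlations of 0.81 (GRMZM2G142386 and GRMZM2G000739) to 0.998 (GRMZM2G104898 and GRMZM2G428027). These correlations hold the group differences given above and all probes of an array share its scaling. With the group means taken out, GRMZM2G104898 and GRMZM2G428027 still correlated at 0.984 and GRMZM2G142386 and GRMZM2G076723 at 0.918. GRMZM2G104898 and the methyltransferase correlated at 0.945, and the nitrite reductase and GRMZM2G076723 at 0.635, the lowest of the 15 pairs. Among the 4 nitrate reductase probes these 2 values were the highest, for GRMZM2G104898 with GRMZM2G428027 and GRMZM2G142386 with GRMZM2G076723. Values across these 2 pairs reached 0.806. For GRMZM2G104898, GRMZM2G428027 and the methyltransferase the control T arrays spread most (SD 1.03, 1.13 and 1.42), split by slide, and weigh most in these values. Signal shared between similar genes cannot be told apart from separate transcripts here.

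The probes outside the 6 with a pattern most like GRMZM2G142386 over the 24 arrays were GRMZM2G044800, of unknown function (r = 0.969), GRMZM2G010920, described as a myb-like regulator (r = 0.959), and GRMZM2G164454, an alpha/beta hydrolase (r = 0.930). GRMZM2G010920 was called under all 3 stresses, with log2 changes of -1.17 at low temperature, -2.84 in low N and -1.17 in low P (limma adjusted p = 0.00542, 0.000666 and 0.000153). Under low P GRMZM2G044800 and GRMZM2G164454 changed by -0.61 and -0.75 and were not called. Among the probes of the pathway table the closest was the high affinity nitrate transporter family member GRMZM2G455124 (r = 0.872). A sucrose phosphate synthase, GRMZM2G013166 (r = 0.847), and a threonine synthase, GRMZM2G050570 (r = 0.839), followed. All 3 were called lower under low temperature and low N. Under low P they changed by -0.94, 0.29 and 0.08 in the same order, and none was called. For the nitrite reductase the closest were GRMZM2G044800 (r = 0.921), the glucose-6-phosphate dehydrogenase GRMZM2G177077 (r = 0.908) and a probe without annotation (r = 0.904). In the pathway table GRMZM2G177077 was followed by a chloroplast beta-amylase, GRMZM2G082034 (r = 0.860), and a serine hydroxymethyltransferase, GRMZM2G135283 (r = 0.837).

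For the methyltransferase the closest were GRMZM2G129268 and GRMZM2G104147, both described as Mg2+ permeases (r = 0.919 and 0.904), and again GRMZM2G177077 (r = 0.907). From the pathway table GRMZM2G440208, a 6-phosphogluconate dehydrogenase, came next (r = 0.889), before GRMZM2G135283 (r = 0.871). Glucose-6-phosphate and 6-phosphogluconate dehydrogenase form NADPH in the oxidative pentose phosphate pathway. GRMZM2G177077 changed by 0.01 under low temperature (adjusted p = 0.982), -1.67 under low N (adjusted p = 0.00186) and -1.95 under low P (adjusted p = 6.53e-05) in limma. GRMZM2G440208 changed by 1.04 (adjusted p = 0.301), -2.13 (adjusted p = 0.000961) and -3.22 (adjusted p = 0.000602) under the 3 stresses in the same order. The 3 highest of 31179 probes were taken in each case, so that these correlations are descriptions.

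The pathway table also lists the steps before and after nitrate reduction. Of 8 nitrate transport probes 2 were called lower under low temperature, 4 lower under low N, and 2 lower and 1 higher under low P. Of all tested probes 7.11%, 3.14% and 3.01% were called lower under these stresses in the same order. Under low temperature these were GRMZM2G044851 (-3.19, limma adjusted p = 0.00134), similar to the transporter NRT1.5, and GRMZM2G455124 (-1.92, limma adjusted p = 0.000394). Under low N GRMZM2G455124 changed by -2.45 (limma adjusted p = 0.00212) and GRMZM2G044851 by -1.44 (limma adjusted p = 0.0203). Under low P the low affinity transporter GRMZM2G150468 rose by 4.23 (limma adjusted p = 1.09e-06, with 8.22% of tested probes called higher), and GRMZM2G044851 changed by -2.32 (limma adjusted p = 2.55e-05). The nitrate transport medians were -0.39, -0.79 and -0.27.

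Of 7 GS/GOGAT probes 2 were called higher under low temperature, where 7.25% of tested probes were. These were the NADH-dependent glutamate synthase GRMZM2G085078 (1.06, limma adjusted p = 0.000658) and the cytosolic glutamine synthetase GRMZM2G024104 (1.003, limma adjusted p = 0.00228). Both changes were close to the limit of a factor of 2, and the count fell to 1 in 4 of 8 fits with a single array left out. Under low N 0 of 7 passed both limits in limma, 2 at an unadjusted p under 0.05, and 2 passed the adjusted p alone, as did 11.2% of tested probes. Under low P the cytosolic glutamine synthetase GRMZM2G050514 was called lower (-1.03, limma adjusted p = 0.00135), where 3.01% of tested probes were. Its change was close to the limit of a factor of 2, and this call was lost without control P replicate 1, control P replicate 2 or low P replicate 4. The medians of this list were 0.18, -0.14 and -0.21, against -0.85, -3.13 and -1.86 for the 6 nitrate reduction probes, each in the order used above.

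**Figure D5:**
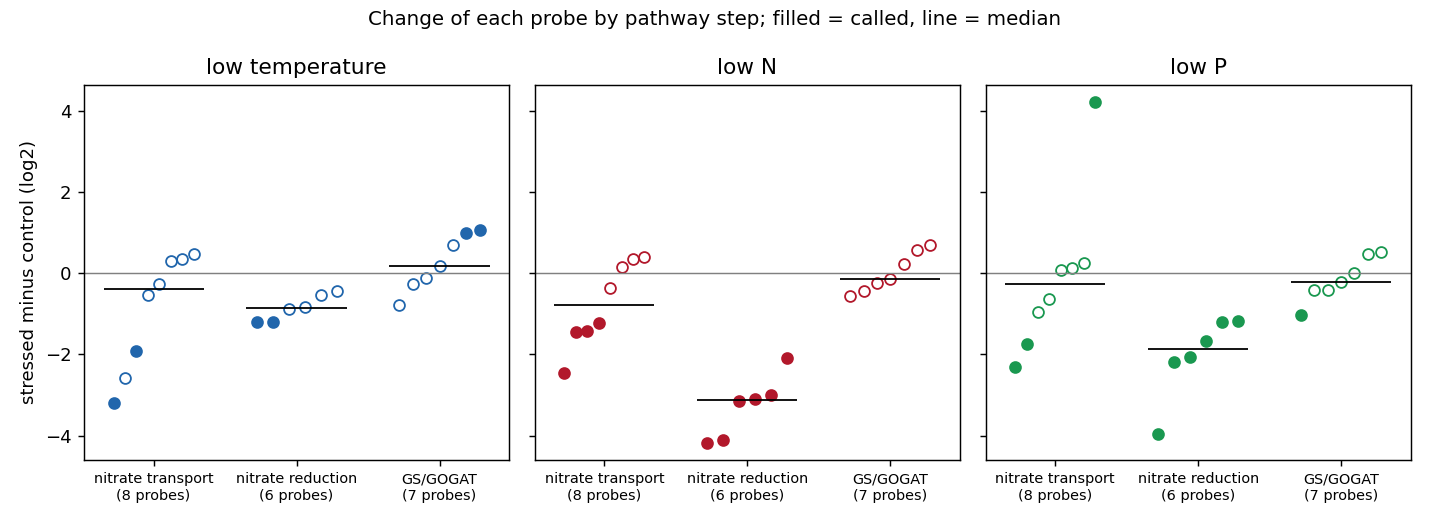
Log2 change of stressed against control arrays (vertical axis) for each probe of nitrate transport, nitrate reduction and the GS/GOGAT cycle under the 3 stresses, filled where called, with a line at the median. The nitrate reduction probes lie below 0 under every stress, with medians of -0.85, -3.13 and -1.86. The other lists lie on both sides of 0. Under low temperature 2 of the 6 nitrate reduction probes are filled. There GRMZM2G000739 lay at 0.01 with spike-in scaling, 0.83 on slide 1 alone and 0.14 without control T replicate 4. GRMZM2G428027 lay at 0.02 on slide 1 alone.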

How the data were processed

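The authors hybridized Cy3-labelled RNA to 1-colour Agilent arrays and deposited the intensity of each spot as given by Agilent Feature Extraction (11.0.1.1 per the file headers of all 24 arrays, 11.7.1 in the submitters' processing notes), with background subtracted and no scaling between arrays. They also deposited log2 values from GeneSpring, scaled to the 75th percentile and centred per probe, which were used as an alternative. The files held 0 columns of other samples. Here log2 intensity minus the array's 75th percentile over transcript probes was used. Outlier spots were dropped, and a probe was tested if every array of at least 1 group had it well above background (31507 of 41780). Groups came from the sample labels. Each stress was compared with its control on 8 arrays with limma 3.58.1 (lmFit, eBayes) in R 4.3.3, and all adjusted p-values are from it. The study names no test for its arrays. The limits were a fold change over 2 and an adjusted p under 0.05. Differences between stresses were interaction contrasts on 24 arrays, called at an adjusted p under 0.05. An exact permutation test of 4 against 4 arrays cannot give a two-sided p under 0.0286, and each pair of groups without overlap reached it.

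Precision is limited by 4 arrays per group. The pathway table lists 854 probes by heading. From the transport and GS/GOGAT lists at most the 2 called probes with the largest change per stress were named, and for likeness the 3 probes with the highest correlation over all tested probes and over the pathway table. The members, lists and tests were chosen with earlier results of these data known. Only 2 of the 6 loci matched a gene table of another assembly, and no coordinates or sequences are given. Deviations from group means of arrays with the same replicate number correlated at 0.189 to 0.424 for low T with control T. For low N with control N they correlated at 0.175 to 0.362. The main fits held no pairing, and replicates were paired only in the alternative with a replicate block. The pairing comes from these correlations only and matches the split by slide at low temperature. In the low P experiment the correlations were -0.104 to 0.045. Scripts were tested on simulated data. Alternatives were another background correction (normexp on median signals with an offset of 50, since mean signals were not used here), quantile normalization, spike-in scaling, other filters, blocks and leaving out arrays.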

Additional observations from a re-analysis of the deposited data

Results flagged for a closer look

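In 13 cases the change of a nitrate reduction gene differed between 2 stresses by the interaction contrast in limma, as the difference of the first change minus the second. Between low N and low P these were -1.94 for GRMZM2G142386, -1.93 for GRMZM2G104898, -2.13 for GRMZM2G428027 and -1.81 for GRMZM2G076723. Between low temperature and low N they were 1.91 for GRMZM2G142386, 3.25 for GRMZM2G104898, 3.35 for GRMZM2G428027, 1.82 for GRMZM2G076723, 1.55 for GRMZM2G079381 and 2.72 for GRMZM2G000739. Between low temperature and low P they were 1.32 for GRMZM2G104898, 1.14 for GRMZM2G079381 and 3.53 for GRMZM2G000739. The contrasts with low temperature compare plants of another age, leaf and chamber. In those with low P, slide and phosphate supply cannot be told apart. In the 36 sets of 4 arrays (6 genes in 6 groups) Dixon's test found 0 arrays far from the other 3, and this test cannot see a split of 2 against 2 arrays such as that of control T.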

How the results depend on the processing

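Each combination of 1 of the 6 genes with 1 refit was counted. The low N calls kept their direction and stood in 114 of 114 combinations, and the low P calls in 104 of 108. The other 4 were GRMZM2G142386 and GRMZM2G076723 under scaling on all spike-in probes (-0.95 and -0.98) and on the 7 spike-in probes well above background on every array (-0.65 and -0.69), the latter chosen after seeing the data, as were the fits of single slides. These scalings moved the median change of all tested probes by 0.22 to 0.58, upwards in every experiment. The 2 low temperature calls became 0 under normexp, quantile, both spike-in scalings and on slide 1 alone, and 4 on slide 2 alone. The change of GRMZM2G000739 at low temperature turned to 0.011 under spike-in scaling, 0.83 on slide 1 and between -0.88 and 0.14 when single arrays were left out (0.14 without control T replicate 4), and that of GRMZM2G428027 to 0.017 on slide 1.

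Low temperature and low P differed in 1 of 6 genes under normexp and under restricted spike-in scaling, in 4 under quantile and spike-in scaling, and in 2 to 4 with single arrays left out, against 3 as reported. That difference was 0.016 for GRMZM2G142386 under normexp, 0.24 under quantile and 0.18 under spike-in scaling, and for GRMZM2G076723 it was -0.29 under restricted spike-in scaling. With single arrays left out these ranged from -0.16 to 0.13 and from -0.14 to 0.18. The call of GRMZM2G000739 between control N and control P (1 gene) became 0 under normexp, restricted spike-in scaling, the fit of all 24 arrays and the replicate block, and 0 to 1 with single arrays left out. The replicate block changed no other call among the 6 genes. Of the 30 neighbouring pairs 7 differed under restricted spike-in scaling. Under normexp the distance from GRMZM2G079381 to GRMZM2G000739 changed by 0.75 under low N and 2.10 under low P, and under quantile that from GRMZM2G142386 to GRMZM2G076723 by 0.0029 under low N.

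Of the transport probes 1 was called at low temperature under normexp and 1 under low N with both spike-in scalings, 5 under low P without the fold limit, and 2 to 4 under low N with single arrays left out (2 without low N replicate 1). Of the GS/GOGAT probes 0 were called under low P with normexp or spike-in scaling, 1 under low N with restricted spike-in scaling, 1 at low temperature on slide 2, and 2 under low N and 4 under low P without the fold limit. With single arrays left out their number was 1 to 2 at low temperature and 0 to 1 under low P. The causes were not tested. All 6 probes were well above background on every array. The change of GRMZM2G000739 under low N was -3.15 as reported and -2.78 under normexp.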
